A study of Mus musculus with 8 samples.

Results

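The 4 Hox clusters were examined CpG by CpG in 8 libraries of reduced representation bisulfite sequencing (RRBS), a method that reads DNA methylation mainly in CpG-rich fragments. The members were the CpGs, cytosines followed by guanine, inside 4 intervals of the mouse build mm9: HoxA at chr6:52100000-52220000, HoxB at chr11:96050000-96235000, HoxC at chr15:102745000-102875000 and HoxD at chr2:74490000-74610000. The deposited files listed 3324 CpGs there in at least 1 library, and 2450 of them had 10 or more reads in all 8 libraries. These 2450, of 622768 such CpGs in the whole data set (0.393%), comprised 683 in HoxA, 551 in HoxB, 448 in HoxC and 768 in HoxD. The intervals hold 38 Hox genes of the member list.

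The libraries came from mouse embryonic stem cells of strain 129/SvP, plated at low density in medium with FBS and LIF. The cells were left untreated, or received L-proline (1 mM), vitamin C (500 µM) or both, and were taken on day 2 or day 5. Each of these 8 combinations was 1 library, so no combination had a replicate, and FBS and LIF were common to all of them. No expression was measured, so the cell type could not be checked against its marker transcripts. Median coverage of the cluster CpGs ran from 28 to 56 reads per library. The share of methylated reads on the lambda contig was between 0.195% and 0.513%, and levels of that size in the clusters are close to this floor. Mean methylation of the 620318 other CpGs was 16.1% to 18.3% in the 4 libraries with vitamin C and 19.1% to 24.0% in the 4 without, so the clusters are set beside those CpGs throughout. Whether a read C was 5-methylcytosine or 5-hydroxymethylcytosine cannot be told from bisulfite data.

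Hox genes encode homeodomain transcription factors that assign position along the body axis. They lie in 4 clusters in mammals, in an order that matches where and when they are switched on in the embryo. In embryonic stem cells the clusters are long CpG-rich stretches, known to be covered by Polycomb proteins and largely free of DNA methylation. Vitamin C is known as a cofactor that raises the activity of TET enzymes, which oxidise 5-methylcytosine.

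Promoter sequences of 5 genes are shown first, since the results at gene starts turn on them. Sequences of 22 of the 38 member genes were matched in the RefSeq table (GRCm38.p6), and 12 of these could be placed on mm9 positions by the spacing of their CpGs. The 5 printed here are the 250 bases before the start, on the gene's strand from 5′ to 3′, with each CpG in capitals. They span the range of methylation found: Hoxd12 and Hoxd4 were the most methylated, Hoxa6 lay beside a methylated stretch, Hoxa5 stood out in the L-proline library of day 5, and Hoxd11 was nearly unmethylated. Hoxd12, placed at chr2:74512820-74513069 on the plus strand, has 10 CpGs in these bases. Hoxd4, at chr2:74559785-74560034 on the plus strand, has 3. Hoxa6, at chr6:52158672-52158921 on the minus strand, has 24. Hoxa5, at chr6:52154587-52154836 on the minus strand, has 28. Hoxd11, from its second listed start at chr2:74520130-74520379 on the plus strand, has 20.
Hoxd12: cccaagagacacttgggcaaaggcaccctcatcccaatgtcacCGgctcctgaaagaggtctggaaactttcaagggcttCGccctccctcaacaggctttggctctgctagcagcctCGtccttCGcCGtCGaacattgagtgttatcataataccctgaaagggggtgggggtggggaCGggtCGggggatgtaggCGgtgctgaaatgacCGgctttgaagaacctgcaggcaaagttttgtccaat
Hoxd4: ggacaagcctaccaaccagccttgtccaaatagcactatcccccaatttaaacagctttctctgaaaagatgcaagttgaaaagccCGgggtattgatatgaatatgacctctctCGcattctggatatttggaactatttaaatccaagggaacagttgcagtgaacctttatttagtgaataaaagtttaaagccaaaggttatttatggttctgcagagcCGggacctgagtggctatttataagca
Hoxa6: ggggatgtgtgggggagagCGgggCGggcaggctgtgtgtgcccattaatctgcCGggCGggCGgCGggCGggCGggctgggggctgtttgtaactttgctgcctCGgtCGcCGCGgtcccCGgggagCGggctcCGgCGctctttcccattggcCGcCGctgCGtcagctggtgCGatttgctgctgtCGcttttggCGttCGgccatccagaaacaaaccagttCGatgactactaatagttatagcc
Hoxa5: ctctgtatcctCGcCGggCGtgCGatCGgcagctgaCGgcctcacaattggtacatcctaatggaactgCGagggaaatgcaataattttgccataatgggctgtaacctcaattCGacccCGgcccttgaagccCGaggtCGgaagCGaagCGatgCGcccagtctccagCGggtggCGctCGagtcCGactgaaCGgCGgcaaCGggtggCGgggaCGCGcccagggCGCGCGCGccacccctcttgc
Hoxd11: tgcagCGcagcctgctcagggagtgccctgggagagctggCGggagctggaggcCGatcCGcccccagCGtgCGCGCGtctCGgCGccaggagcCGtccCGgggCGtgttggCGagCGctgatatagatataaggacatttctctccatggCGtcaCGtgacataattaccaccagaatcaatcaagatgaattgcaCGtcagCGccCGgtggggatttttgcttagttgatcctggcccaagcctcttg
Across all 32851 RefSeq promoter windows of 300 bases the median was 7 CpGs, with quartiles of 3 and 20.

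The 4 clusters were weakly methylated in every library, and lower in each library with vitamin C than in any library without it. HoxA averaged 5.82% in untreated cells on day 2, 7.13% with L-proline, 2.46% with vitamin C and 3.26% with both. On day 5 HoxA averaged 6.62%, 10.4%, 1.84% and 2.62% in the same order. HoxB averaged 8.90%, 11%, 5.33% and 6.33% on day 2 and 10.7%, 14.4%, 4.11% and 4.98% on day 5. The L-proline library of day 5 was the highest in both clusters, and the vitamin C library of day 5 the lowest. HoxC averaged 6.68%, 7.91%, 3.17% and 3.92% on day 2 and 7.85%, 10.8%, 2.01% and 2.49% on day 5. HoxD averaged 5.27%, 6.66%, 2.72% and 3.07% on day 2 and 6.70%, 10.1%, 1.94% and 1.95% on day 5. The order of the libraries was nearly the same in the 4 clusters.

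**Figure D1:**
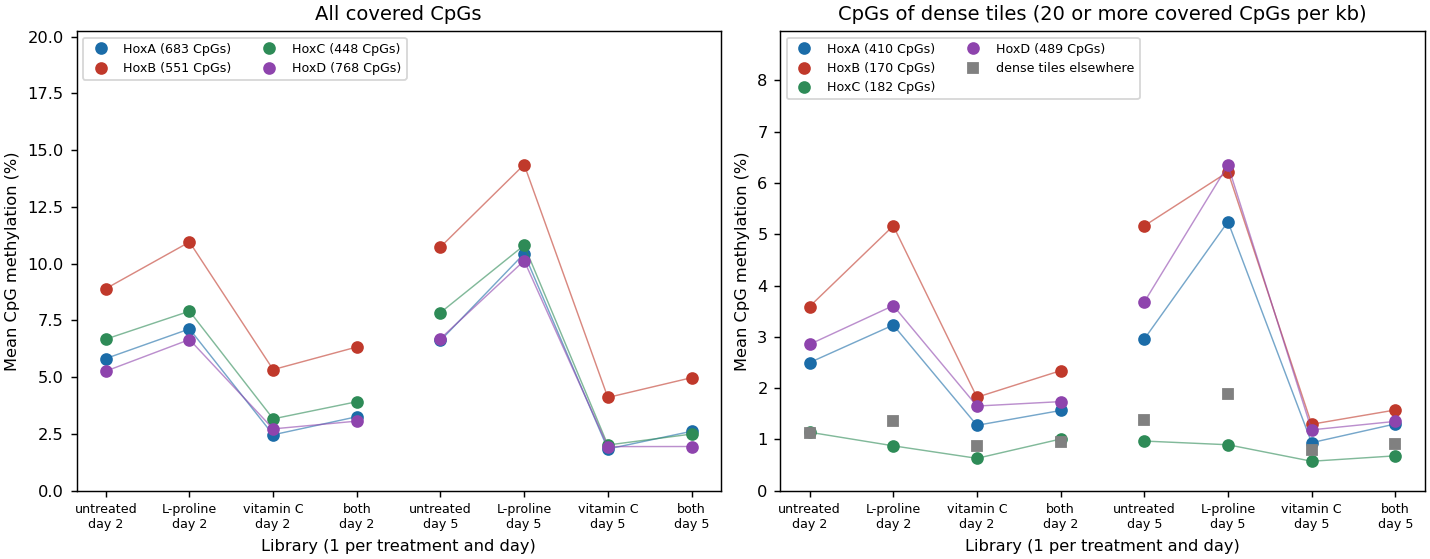
Mean CpG methylation (%) of each Hox cluster in each of the 8 libraries, for all covered CpGs (left) and for CpGs in dense tiles (right), where grey squares give dense tiles outside the clusters; each point is 1 library and lines join the treatments of one day. The 4 libraries with vitamin C lie below the 4 without it in each cluster at left, while the dense CpGs of HoxC stay between 0.575% and 1.14% in all 8 libraries.

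HoxB was the most methylated cluster. Over the 8 libraries the means were 8.21% for HoxB, 5.6% for HoxC, 5.02% for HoxA and 4.80% for HoxD. HoxB exceeded HoxC by 2.61 ± 0.511 points (SD, n = 8 libraries) and was higher in 8 of 8 libraries (exact sign-flip permutation, two-sided, adjusted p = 0.0117 over 6 pairs of clusters). HoxC exceeded HoxD by 0.799 ± 0.452 points in 8 of 8 libraries, with the same adjusted p from the exact permutation. HoxC exceeded HoxA by 0.581 ± 0.424 points, in 7 of 8 libraries. HoxA and HoxD did not differ beyond the spread between libraries (0.219 ± 0.341 points, exact permutation adjusted p = 0.117). The libraries are 8 conditions, not replicates of one, so these tests ask whether an order held across conditions. The order depended on which CpGs were read: with a minimum of 30 reads, HoxB and HoxD differed by -0.0101 points. It also depended on CpG density. In 1 kb tiles with 20 or more covered CpGs (dense tiles), HoxC was lowest in 8 of 8 libraries. Its mean there was 0.847%, against 2.38% in HoxA and 2.80% in HoxD. In other tiles HoxA minus HoxC was 0.140 ± 0.516 points. HoxA minus HoxB was -3.19 points over all CpGs, -1.02 in dense tiles and -1.36 in other tiles.

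Vitamin C went with lower methylation in each cluster. Differences were taken within 4 matched pairs, each of 2 libraries that shared the day and the presence of L-proline. HoxA averaged 7.50% in the libraries lacking vitamin C and 2.54% in those given it, which differ by -4.96 ± 2.00 percentage points (SD, n = 4 pairs). The difference was -6.05 ± 2.56 points in HoxB, -5.41 ± 2.18 in HoxC and -4.77 ± 2.45 in HoxD. Each cluster was lower in 4 of 4 pairs, and the exact sign-flip permutation over the pairs gave p = 0.125, the smallest value that 4 pairs allow. Over all 2450 CpGs the mean was 8.39% without and 3.16% with vitamin C, a change of -62.3%. The other CpGs of the data set averaged 21.4% and 17.3%, a change of -19.3%. These relative changes start from unlike levels. In points the differences were -5.23 in the clusters and -4.14 elsewhere, a gap of -1.09 ± 0.833 points in 4 of 4 pairs. The 4 pairs of the clusters differed in size: -3.18 points on day 2 and -5.38 on day 5 against untreated cells, and -3.97 on day 2 and -8.38 on day 5 when L-proline was in both libraries.

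Most cluster CpGs had little methylation to lose. Of the 2450 CpGs, 1849 (75.5%) averaged under 5% over the 8 libraries, 400 (16.3%) averaged 5% to 20%, and 201 (8.20%) averaged 20% or more. Only 6 averaged 80% or more, of which 4 were in HoxB and 2 in HoxC. Elsewhere 25.6% of CpGs averaged 20% or more and 12.6% averaged 80% or more. No methylated read was listed in any library at 246 cluster CpGs (10%), against 15.6% of CpGs elsewhere. The clusters thus held few fully methylated CpGs, and also a smaller share without any methylated read. HoxB had the largest share at 20% or more (12.3%), followed by HoxD (7.68%), HoxA (6.59%) and HoxC (6.47%).

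The number of methylated CpGs moved with the treatment. In untreated cells 245 of the 2450 CpGs reached 20% on day 2 and 304 on day 5. With L-proline the numbers were 320 and 445. With vitamin C they were 110 and 61, and with both 126 and 91. Elsewhere the share of CpGs at 20% or more stayed between 22.5% and 29.1% across the 8 libraries, while in the clusters it ran from 2.49% to 18.2%.

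Single CpGs moved in the same direction. With vitamin C, 484 of the 2450 cluster CpGs (19.8%) were lower in all 4 matched pairs, where 14% of all CpGs were, and 2 were higher in all 4, where 0.174% of all CpGs were. The share was 23.0% in HoxB, 21.7% in HoxC, 19.6% in HoxA and 16.4% in HoxD. With L-proline, 98 cluster CpGs (4%) were higher in all 4 pairs, where 6.9% of all CpGs were, and 9 were lower in all 4, where 0.511% of all CpGs were.

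**Figure D2:**
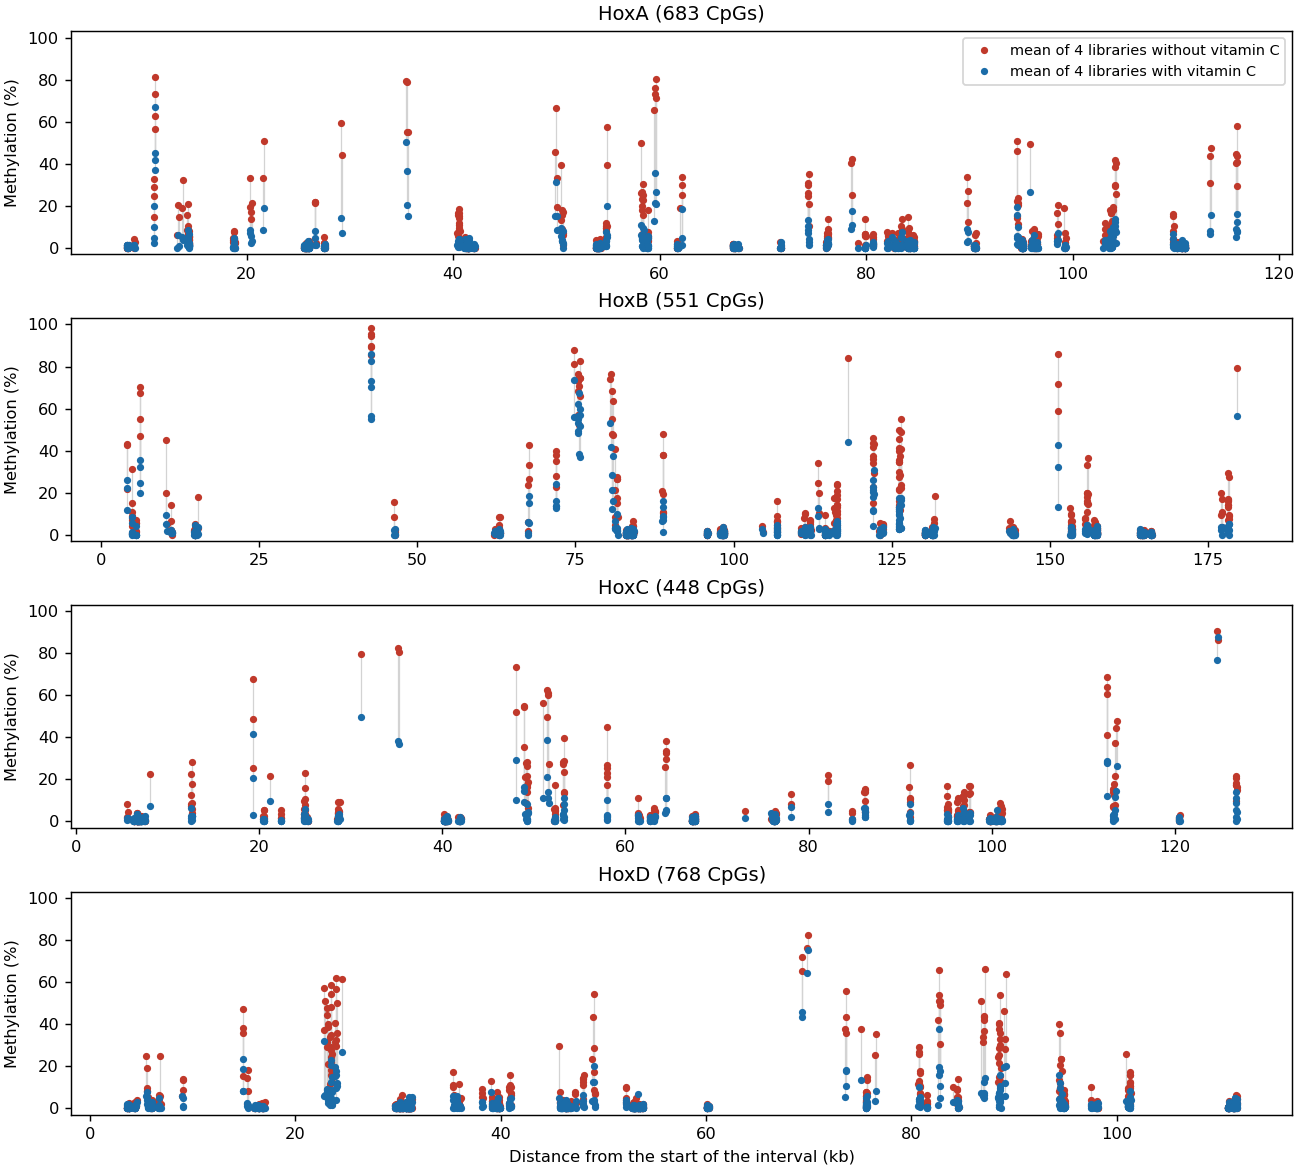
Methylation (%) of each covered CpG along the 4 intervals (kb from the interval start), as the mean of the 4 libraries without vitamin C (red) and the mean of the 4 with it (blue), joined by a grey line. Most CpGs lie near 0 in both, and the scattered methylated ones have lower blue than red points, with levels above 80% left at single CpGs of HoxB and at the far end of HoxC.

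The difference was compared with CpGs elsewhere in the same class of mean level, since a CpG near 0 cannot lose much. In the class averaging 5% to 20%, the 400 cluster CpGs had a mean of 10.3% and the 34016 others 10.6%. The cluster CpGs differed by -12.7 ± 6.33 points with vitamin C (from 16.6% to 3.93%), and the others by -10.1 points. The gap was -2.63 ± 0.287 points and had the same sign in 4 of 4 pairs. In the class of 20% to 40% the 139 cluster CpGs averaged 28.4% and the 21408 others 29.9%. There the differences were -29.7 points in the clusters and -19.2 elsewhere, a gap of -10.5 ± 1.5 points in 4 of 4 pairs. In the class of 40% to 60% the gap was -13.7 ± 7.29 points over 34 cluster CpGs, and at 60% to 80% it was -5.69 ± 3.40 points over 22, again in 4 of 4 pairs each. Each of these gaps had an exact sign-flip permutation p of 0.125, the smallest possible. For the 6 CpGs at 80% or more the gap was -5.15 ± 8.56 points in 3 of 4 pairs, within the spread between pairs.

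**Figure D3:**
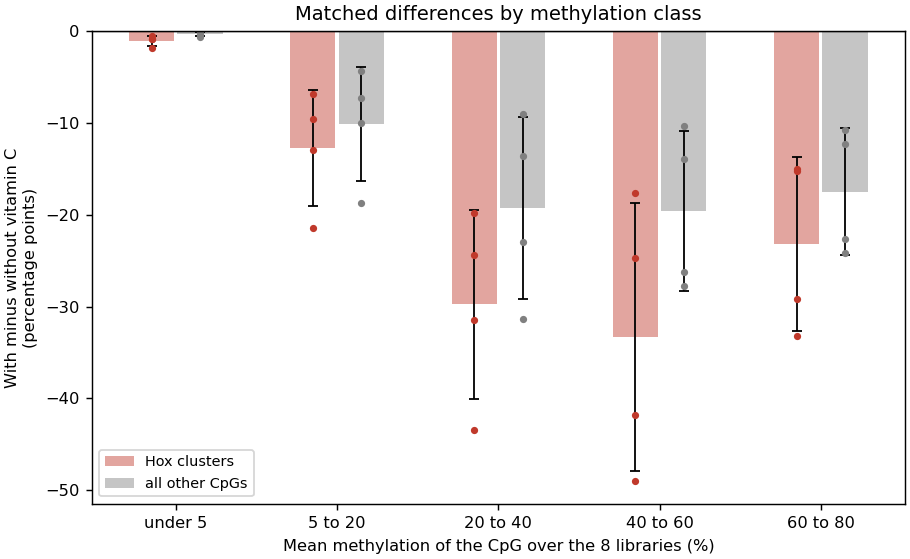
Matched difference for vitamin C (percentage points, with minus without) for cluster CpGs (red) and all other CpGs (grey), by the mean methylation class of the CpG; bars are means of 4 pairs, error bars are SD and points are the pairs. In each class the cluster bar reaches further down, with the gap largest at 40% to 60%. Under 5% the cluster CpGs averaged 1.28% and the others 0.761%.

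CpGs were also classed by the untreated library of one day and read on the other day, so that the class did not use the libraries compared. The 446 cluster CpGs at 5% to 20% in untreated cells on day 2 averaged 10.9% in untreated cells on day 5, 17.1% with L-proline, 1.91% with vitamin C and 2.57% with both. The 42532 CpGs of that class elsewhere averaged 12.5%, 21.2%, 4.04% and 7.09%. Vitamin C against untreated thus differed by -8.97 points in the clusters and -8.49 elsewhere, a smaller gap than by the mean of 8 libraries. Classed by day 5 and read on day 2, the same comparison gave -4.50 points in 462 cluster CpGs and -2.51 in 44612 elsewhere. These are values of single libraries, with no test. The 245 cluster CpGs at 20% or more in untreated cells on day 2 averaged 44.1%, 57.9%, 15.3% and 19.1% on day 5 in the same order. The 156257 CpGs of that class elsewhere started from a higher level, at 78.1%, 84.7%, 61.3% and 67.0%.

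Methylated and dense CpGs were largely separate in the clusters, though less so than elsewhere. A tile of 1 kb was called dense when it held 20 or more covered CpGs, which stands in for a CpG island here. Only CpGs covered in all 8 libraries were counted, so CpG-rich sequence with partial coverage falls among the other tiles. The start of Hoxd9, with 20 CpGs in its 300-base window, lies in such a tile. Of the 201 CpGs averaging 20% or more, 30 lay in dense tiles (14.9%), and of the 1849 under 5%, 1109 did (60%). In HoxC none of the CpGs averaging 5% or more lay in a dense tile. In HoxD 16 of 59 methylated CpGs did, in HoxB 10 of 68 and in HoxA 4 of 45. The dense tiles of the clusters also held 112 CpGs averaging 5% to 20%. Elsewhere 10225 of 317590 dense CpGs averaged 5% or more, a smaller share than in the clusters.

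CpGs of dense tiles were nearly unmethylated, yet also lower with vitamin C. The 1251 dense cluster CpGs averaged 2.59%, 3.30%, 1.40% and 1.66% on day 2 in untreated, L-proline, vitamin C and combined cells, and 3.25%, 5.17%, 1.03% and 1.27% on day 5. The matched difference was -2.24 ± 1.19 points. Dense CpGs elsewhere, at a mean of 1.16% against 2.46% in the clusters, differed by -0.559 points, and the gap of -1.68 ± 0.888 points was present in 4 of 4 pairs (exact permutation p = 0.125). The clusters did not behave alike here. The difference was -3.28 ± 1.25 points in HoxB, -2.64 ± 1.66 in HoxD and -2.21 ± 1.20 in HoxA. In HoxC, whose dense CpGs averaged 0.970% without and 0.723% with vitamin C, it was -0.247 ± 0.280 points, lower in 3 of 4 pairs and within the spread. Much of the gap sat in few places: without the 2 dense tiles with the largest differences it was -0.753 ± 0.509 points.

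Those tiles were exceptions among 36 dense tiles. Averages under 5% were found in 32 of the 36, and under 1% in 17. The dense tile with the highest mean, 21.6%, was HoxD chr2:74513001-74514000, which covers the start of Hoxd12, a posterior gene of the digits and distal limb. Its 29 CpGs together read 24.6%, 28%, 11% and 10.1% on day 2 and 32.7%, 52.7%, 6.53% and 6.92% on day 5, in the order untreated, L-proline, vitamin C and both. All 4 libraries with vitamin C lay below all 4 without. The next was HoxB chr11:96176001-96177000, with 24 CpGs at 18.3%, 28.1%, 6.74% and 10.7% on day 2 and 31.6%, 36.4%, 6.12% and 6.79% on day 5. HoxA chr6:52158001-52159000, over the start of Hoxa6, followed with 10.9%, 11.4%, 2.28% and 4.97% on day 2 and 11.4%, 21.3%, 2.26% and 2.53% on day 5. By contrast the densest tile, HoxD chr2:74520001-74521000 over the start of Hoxd11 with 70 CpGs, stayed between 0.514% and 0.960% in the 8 libraries.

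Tiles were then tested with limma, fitted on log2((methylated + 1)/(unmethylated + 1)) of the reads of 50167 tiles of at least 3 CpGs, in a model of the 3 factors (both compounds and the day). Called tiles had an adjusted p under 0.05 over all tiles and a matched difference of 10 points or more. For vitamin C, 52 of the 172 Hox tiles were called lower (30.2%), where 23.2% of all tiles were, and 0 were called higher in the clusters or elsewhere. Vitamin C at an unadjusted p under 0.05 gave 124 lower and 1 higher Hox tile, a count not made over all tiles. By adjusted p with no minimum difference, 113 Hox tiles (65.7%) and 34.3% of all tiles were called lower. The called tiles numbered 15 of 47 in HoxB, 14 of 43 in HoxD, 13 of 44 in HoxA and 10 of 38 in HoxC. Their differences ran from -10 to -51.3 points with a median of -20.5, and the 52 tiles were lower in 4 of 4 pairs. The count rested on absolute differences between libraries. After each library was centred to one median, 6 Hox tiles (3.49%) and 0.409% of all tiles were called lower. A quasi-binomial model called 3 Hox tiles (1.74%) and 1.18% of all tiles. Without the library of both compounds on day 5, limma called 32 Hox tiles (18.6%) and 5.30% of all tiles.

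The minimum difference tied the calls to the level. A tile averaging under 5% cannot differ by 10 points, so none of the 105 such Hox tiles could be called. Of the 39 at 5% to 20%, 26 were called (66.7%, against 38.4% of tiles elsewhere). Of the 27 at 20% to 80%, 25 were called (92.6%, against 50.3%). The 4 libraries with vitamin C lay below all 4 without it in 98 of the 172 Hox tiles (57%), which was so in 26.2% of all tiles. Tiles lower in 4 of 4 pairs numbered 122 of the 172 (70.9%), where 49% of all tiles were. At 20% to 80% they numbered 27 of the 27, where 72.6% of all such tiles were. Among Hox tiles at 20% to 80% the absence of overlap held for 25 of 27, where it held for 37.9% of all such tiles. Levels were not matched within that class. By single CpG, those averaging 20% to 80% had a mean of 36.7% in the clusters and 54.6% elsewhere.

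**Figure D4:**
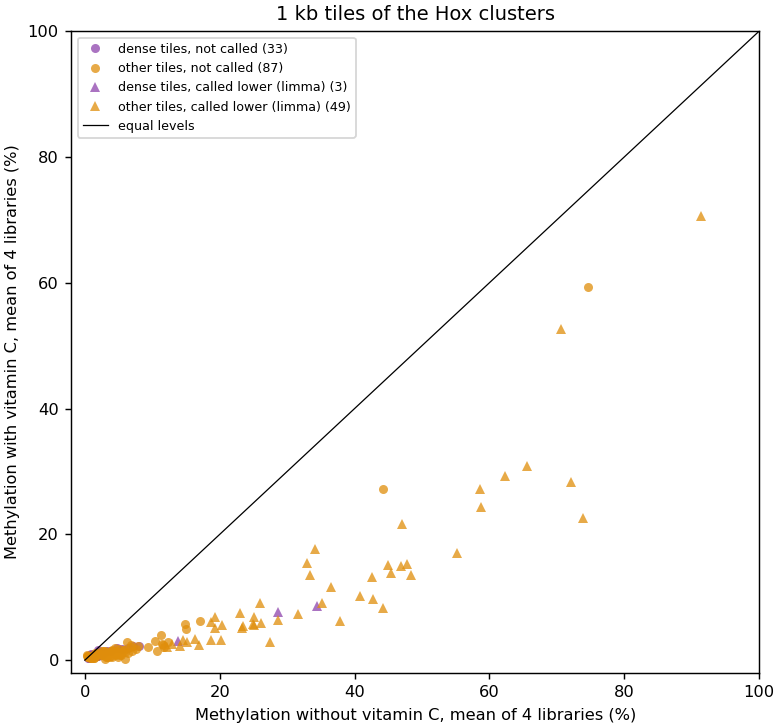
Methylation (%) of the 172 tiles of 1 kb in the Hox clusters, as the mean of the 4 libraries with vitamin C against the mean of the 4 without; purple marks dense tiles, triangles mark tiles called lower by limma and the line marks equal levels. Called tiles lie far below the line, and 3 of the 36 dense tiles are among them. Of the 36, 32 average under 5% and could not reach the 10 points that a call needs.

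In the tile with the largest difference of each cluster, the 4 libraries with vitamin C lay below the 4 without, while the order within each set of 4 varied between tiles. HoxA chr6:52159001-52160000, which begins 330 bases upstream of the start of Hoxa6, read 72.7%, 67.3%, 26.8% and 34.9% on day 2 and 73.4%, 82.1%, 14.2% and 14.4% on day 5. It differed by -51.3 ± 15.5 points (limma adjusted p = 0.0106). HoxB chr11:96201001-96202000 read 58.2%, 66.7%, 42.2% and 38.7% on day 2 and 72.7%, 90.8%, 14% and 18.5% on day 5. Its difference was -43.8 ± 26.2 points (limma adjusted p = 0.0136). HoxC chr15:102793001-102794000 differed by -38.2 ± 17.5 points (limma adjusted p = 0.0111) and HoxD chr2:74577001-74578000 by -35.8 ± 16.5 points (limma adjusted p = 0.0116). The vitamin C and untreated libraries stood further apart on day 5 than on day 2 in the HoxA and HoxB tiles. No tile moved far in the other direction. The largest positive differences were 0.433 points in HoxA, 0.258 in HoxB, 0.0284 in HoxC and 0.0597 in HoxD, in tiles averaging under 1%.

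Methylated CpGs came in short stretches. There were 30 stretches of 3 or more neighbouring covered CpGs that each averaged 20% or more over the 8 libraries, holding 131 of the 201 methylated CpGs. HoxB had 11, HoxD 10, HoxA 5 and HoxC 4, and 5 of the 30 touched a dense tile. All 30 were lower with vitamin C in 4 of 4 pairs, by differences of -14.9 to -49.8 points with a median of -31.9, from a median level of 48.2% to 16.7%. In 27 of the 30 the libraries with and without vitamin C did not overlap. Of all tiles averaging 20% to 80%, 72.6% were lower in 4 of 4 pairs and 37.9% did not overlap; tiles are cut at fixed positions and stretches are not, so these shares are a description.

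The longest stretch by number of CpGs kept most of its methylation. It lies in HoxB at chr11:96125389-96125693 and holds 12 CpGs. It averaged 59.4%, 65.7%, 47.1% and 61.0% on day 2 and 71.7%, 84.0%, 47.3% and 56.4% on day 5, in the order untreated, L-proline, vitamin C and both. The combined library of day 2 was above untreated cells of that day, and the groups overlap. The difference for vitamin C was -17.2 ± 10.6 points, and that for L-proline 10.4 ± 3.34 points, higher in 4 of 4 pairs. HoxB chr11:96092624-96092726, with 6 CpGs, was the most methylated named stretch at 81.3% over the 8 libraries, and differed by -21.5 ± 10.8 points. HoxB chr11:96130525-96131241, with 8 CpGs, lost more: it averaged 49.1%, 60.1%, 20.1% and 36.8% on day 2 and 51.8%, 75.6%, 16.9% and 34.4% on day 5. Here the combined libraries lay above the vitamin C libraries on both days, and the L-proline difference was 17.2 ± 5.26 points.

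HoxA chr6:52159439-52159645, 5 CpGs starting 768 bases upstream of the Hoxa6 start, averaged 72.5%, 64.9%, 28.8% and 34.8% on day 2 and 73.4%, 81.5%, 13.6% and 15.7% on day 5. Its vitamin C difference of -49.8 ± 16.1 points was the largest of the 30. HoxA chr6:52111048-52111138 differed less, by -19.2 ± 9.77 points from 61.2%. HoxA chr6:52215782-52215932, 4908 bases upstream of the start of Hoxa13, a gene of the distal limb and hindgut, differed by -35.4 ± 22.1 points from 45.4%. In HoxD the differences were -35.0 ± 18.4 points at chr2:74572649-74572803 and -37.5 ± 14.6 points at chr2:74577037-74577143. The HoxD stretch at chr2:74559374-74559901, which starts before the Hoxd4 promoter and ends inside its printed bases, differed by -16.8 ± 6.04 points from 74.3%. HoxC chr15:102795994-102796563 averaged 50.8%, 60.1%, 28.7% and 25.4% on day 2 and 48.1%, 73.0%, 3.77% and 19.2% on day 5, a difference of -38.7 ± 13.6 points.

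Gene starts are described by the 300-base windows that could be placed, 250 bases before and 50 after the start. Of the 38 member genes, 16 had no sequence matched in the table (Hoxa4, Hoxb2, Hoxb3, Hoxb5, Hoxb6, Hoxb7, Hoxb9, Hoxb13, Hoxc5, Hoxc6, Hoxc8, Hoxc9, Hoxc10, Hoxc11, Hoxc12 and Hoxc13) and 10 could not be placed (Hoxa2, Hoxa3, Hoxa7, Hoxa9, Hoxa10, Hoxb1, Hoxb4, Hoxb8, Hoxc4 and Hoxd8). HoxB and HoxC are therefore described by position only. The 12 placed genes are Hoxa5, Hoxa6, Hoxa11, Hoxa13, Hoxd1, Hoxd3, Hoxd4, Hoxd9, Hoxd10, Hoxd11, Hoxd12 and Hoxd13. In 11 of them at least 3 CpGs were covered in all 8 libraries, and the mean over libraries ran from 0.234% to 24.4% with a median of 0.839%. Vitamin C went with lower levels in 4 of 4 pairs at 7 of the 11, and L-proline with higher levels in 4 of 4 pairs at 3. Of all 1 kb tiles, 49% were lower with vitamin C and 28% higher with L-proline in 4 of 4 pairs. Among all tiles averaging under 5% these shares were 22.8% and 12.5%. Tiles and 300-base windows are unlike units, and no share over all promoters was counted.

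Hoxd12 had the most methylated start of the 11. The 5 covered CpGs of its window, whose upstream bases are printed above, averaged 23.4% in untreated cells, 34.4% with L-proline, 9.51% with vitamin C and 4.74% with both on day 2. On day 5 they averaged 36.8%, 69.0%, 4.90% and 12.3%. The vitamin C libraries lay below all others, with a difference of -33.0 ± 17.7 points. Within 1 kb of the start, 34 CpGs gave -25.9 ± 13.1 points, so the pattern was not limited to those 5 CpGs. Hoxd11 and Hoxd13, the neighbours of Hoxd12, stood in contrast: within 1 kb, the 120 CpGs of Hoxd11 stayed between 0.597% and 1.04% in the 8 libraries, and the 41 CpGs of Hoxd13 between 0.214% and 3.82%.

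Hoxa6, a gene of the thoracic axis, had a mostly unmethylated window beside a methylated stretch. Its 12 window CpGs lay between 0.586% and 6.05% in the 8 libraries, with a vitamin C difference of -2.99 ± 1.55 points. The 30 CpGs within 1 kb averaged 21.7%, 20.2%, 6.86% and 9.96% on day 2 and 21.1%, 29.5%, 4.49% and 5.10% on day 5, a difference of -16.5 ± 5.90 points. Hoxa5, which acts in lung and cervicothoracic patterning, had 8 window CpGs at 3.35%, 7.70%, 1.76% and 3.06% on day 2 and 3.32%, 15.2%, 0.660% and 1.68% on day 5. The L-proline library of day 5 stands above the other 7 there. The L-proline difference at Hoxa5 was 4.64 ± 5.07 points, higher in 4 of 4 pairs.

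Hoxd4, with few CpGs in the printed bases, was the reverse of the CpG-rich starts. Its 2 covered window CpGs averaged 52.2%, 82.4%, 55.8% and 72.5% on day 2 and 91.1%, 93.0%, 83.3% and 68.8% on day 5. The vitamin C difference was -9.56 ± 11.4 points, within the spread of the pairs, and 2 CpGs fall below the minimum of 3 used for the counts. Hoxa11, a gene of the forearm and the reproductive tract, averaged 8.92%, 11.4%, 4.90% and 5.91% on day 2 and 8.55%, 11.6%, 2.30% and 8.24% on day 5 over 7 window CpGs, a difference of -4.77 ± 1.32 points. The dense tile over its start, chr6:52195001-52196000 with 30 CpGs, was lower, at 0.292% to 3.37% in the 8 libraries. Its vitamin C difference was -0.876 ± 0.737 points (limma adjusted p = 0.166). Hoxd9 differed by -4.94 ± 3.52 points and Hoxd10 by -0.825 ± 0.299 points, each lower in 4 of 4 pairs. Hoxa13, Hoxd1 and Hoxd3 had windows at 0.325%, 0.567% and 0.436% over the 8 libraries, close to the lambda level, with vitamin C differences smaller than the spread between pairs.

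**Figure D5:**
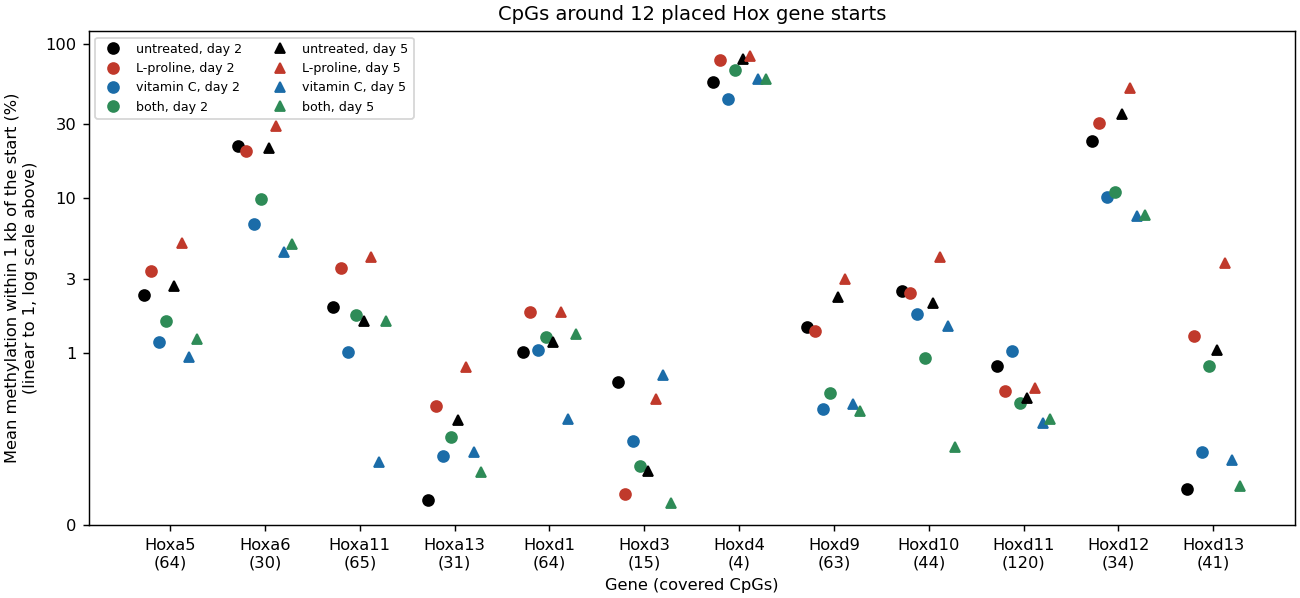
Mean methylation (%) of covered CpGs within 1 kb of the 12 placed Hox gene starts, by library; circles are day 2, triangles are day 5, and the axis is linear up to 1% and logarithmic above. Hoxd4, Hoxd12 and Hoxa6 stand above the other starts, and at Hoxa6 and Hoxd12 the blue and green points (vitamin C, alone or with L-proline) lie below the black and red ones.

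Other promoters placed in the same way gave a frame for these values. Among 15 cofactors and regulators of Hox genes, which include the Pbx partner proteins and the Polycomb and Trithorax genes, 4 were placed (Pbx2, Kmt2a, Suz12 and Bmi1). These 4 had means between 0.250% and 0.842%, and 0 of 4 were lower with vitamin C in 4 of 4 pairs. Of all 1 kb tiles 49% were, and of those averaging under 5% 22.8% were. Among 10 other homeobox genes 4 genes were placed, and of their 4 starts with enough CpGs 2 were lower in 4 of 4 pairs: Dlx2 by -0.304 ± 0.250 points and a second start of Pax6 by -16.4 ± 9.88 points. The promoter of Sox2, the 1 placed stem cell gene of 8 listed, averaged 0.917%. Ddx4, a germline gene, averaged 7.82% and differed by -8.19 ± 3.20 points. Of 2 noncoding transcripts in the clusters, Hoxa11os was lower in 4 of 4 pairs by -0.854 ± 0.417 points.

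L-proline went with higher methylation in the clusters, chiefly in the pair without vitamin C on day 5. Over the 2450 CpGs the matched difference was 1.55 ± 1.37 points, higher in 4 of 4 pairs in each of the 4 clusters (exact permutation p = 0.125). Without vitamin C the pair of day 2 gave 1.49 points and that of day 5 gave 3.5. In its presence the pairs gave 0.692 and 0.503. HoxA differed by 1.68 ± 1.45 points, HoxB by 1.89 ± 1.28, HoxC by 1.36 ± 1.11 and HoxD by 1.29 ± 1.54. In HoxD with vitamin C on day 5 the difference was 0.00462 points. Over all CpGs elsewhere the L-proline difference was 2.05 points. The gap of the clusters to it was -0.509 ± 0.869 points, lower in 3 of 4 pairs and within the spread. Beside CpGs of the same class elsewhere, the sign of the gap for L-proline varied. The difference was 3.93 against 5.13 points in the class of 5% to 20% (gap -1.20 ± 0.659, lower in 4 of 4 pairs) and 8.45 against 10.6 points at 20% to 40% (gap -2.11 ± 1.67, lower in 4 of 4). In the class under 5%, which holds 1849 of the 2450 CpGs, the gap was 0.129 ± 0.280 points, and dense CpGs had a gap of 0.546 ± 0.599 points, higher in 4 of 4 pairs. Levels differed in both: 1.28% in the clusters against 0.761% elsewhere under 5%, and 2.46% against 1.16% in dense CpGs. At 40% to 60% the gap was -2.92 ± 4.97 points and at 60% to 80% it was 2.18 ± 2.58 points, both within the spread.

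For L-proline limma called 0 Hox tiles in either direction, and 0% of all 50167 tiles. At an unadjusted p under 0.05 there were 21 higher and 1 lower Hox tile, a count not made over all tiles. The quasi-binomial model called 0 Hox tiles in either direction, and 19 of all 50167 tiles higher. Tiles higher in 4 of 4 pairs numbered 39 of 172 (22.7%), where 28% of all tiles were. The largest L-proline difference was 21.9 ± 13.9 points at HoxA chr6:52135001-52136000 (limma adjusted p = 0.230). That tile read 58.0% and 65.0% without and with L-proline on day 2, 51.1% and 88.1% on day 5, and in the presence of vitamin C 22.9% and 36.7% on day 2 and 17.0% and 46.8% on day 5. The largest in HoxB was 17.3 ± 4.72 points at chr11:96130001-96131000 (limma adjusted p = 0.241). In HoxC it was 9.16 ± 9.06 points at chr15:102798001-102799000 and in HoxD 12.4 ± 12.1 points at chr2:74504001-74505000.

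Fisher's exact test compared pairs of single libraries CpG by CpG, with adjustment over all 622768 CpGs and a minimum difference of 20 points. Such a test covers counting error in 2 libraries and not the spread between cultures. Vitamin C against untreated called 20 cluster CpGs lower on day 2 (0.816%, where 0.487% of all CpGs were) and 96 on day 5 (3.92%, where 2.95% were). Both compounds against L-proline alone called 40 lower on day 2 (1.63%, where 0.609% were) and 215 on day 5 (8.78%, where 5.67% were). For vitamin C against untreated, 0 cluster CpGs were called higher on day 2 (where 0.0263% of all CpGs were) and on day 5 (where 0.00417% were). For both compounds against L-proline, 0 were called higher on day 2 (where 0.00161% were) and on day 5 (where 0.012% were). Before adjustment, at p under 0.05, the higher cluster CpGs in these 4 comparisons numbered 16 (0.653%, where 0.852% of all CpGs were), 2 (0.0816%, where 0.171% were), 0 (where 0.160% were) and 7 (0.286%, where 0.238% were).

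L-proline against untreated called 1 cluster CpG higher on day 2 (where 0.0954% of all CpGs were) and 16 on day 5 (0.653%, where 0.715% were). The day 5 share is near that of all CpGs. L-proline added to vitamin C called 0 cluster CpGs higher on either day, where 0.321% of all CpGs were on day 2 and 0.0872% on day 5, and 2 lower on day 2, where 0.0337% were. Before adjustment, at p under 0.05, the day 2 libraries had 40 cluster CpGs higher (1.63%, where 3.66% of all CpGs were) and 52 lower (2.12%, where 1.22% were). Those of day 5 had 42 higher (1.71%, where 3.46% were) and 12 lower (0.490%, where 0.731% were). Both compounds against untreated called 7 lower on day 2 (where 0.0499% of all CpGs were) and 47 on day 5 (1.92%, where 0.598% were).

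The single CpGs with the largest called differences lay in all 4 clusters. The HoxC CpG at chr15:102780247 read 100% in untreated and in L-proline cells on day 5, 10.3% with vitamin C and 25% with both. On day 2 the same CpG read 56.5%, 65.7%, 69.2% and 43.5%, so that vitamin C was not lower than untreated there. Its neighbour at chr15:102780204 read 100%, 90.0%, 23.1% and 50% on day 5. The HoxA CpG at chr6:52159538, inside the stretch upstream of Hoxa6, read 65.0%, 71.4%, 18.2% and 42.3% on day 2 and 73.2%, 93.6%, 16.1% and 7.94% on day 5. The HoxD CpG at chr2:74513410, downstream of the Hoxd12 start, read 23.5% in untreated and 76.9% in L-proline cells on day 5, and 6.67% and 0% with vitamin C alone and with both.

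From day 2 to day 5 the clusters had no common direction. The matched difference over the 2450 CpGs was 0.652 ± 2.08 points, higher in 2 of 4 pairs: 1.30 points in untreated and 3.31 in L-proline cells, and -0.906 with vitamin C and -1.09 with both. Limma called 0 Hox tiles for day in either direction and 0% of all tiles. At an unadjusted p under 0.05 it had 3 higher and 7 lower Hox tiles, a count not made over all tiles. Fisher's test of day 5 against day 2 called 0 cluster CpGs in untreated cells (where 0.121% of all CpGs were higher), 20 higher with L-proline (0.816%, where 0.884% were), 1 lower with vitamin C (where 0.0742% were) and 1 lower with both (where 0.0146% were). Before adjustment, at p under 0.05, untreated cells had 70 cluster CpGs higher (2.86%, where 4.11% of all CpGs were) and 17 lower (0.694%, where 0.496% were).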

How the data were processed

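RRBS libraries of mouse embryonic stem cells were used as the authors deposited them: for each CpG a methylation fraction (0 to 1) and its coverage in reads. Per the submitters' processing notes, CASAVA and BSMAP 2.88 were used with build mm9; further steps are not given in the sources used here. Duplicate reads cannot be recognised in RRBS, so read counts overstate the number of molecules, and the error of counting is all that intervals and Fisher tests describe.

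A CpG was kept if each of the 8 libraries had at least 10 reads there, which leaves out weakly covered CpGs, and fractions were printed as percent. Methylated reads were taken as fraction times coverage, rounded. Lambda CpGs gave the unconverted share of each library (Wilson 95% intervals from 0.0991% to 1.22%). Matched differences used exact two-sided sign-flip permutations (16 assignments for 4 pairs, 256 for 8 libraries). Tiles of 1 kb with 3 or more CpGs were fitted with limma 3.58.1 in R 4.3.3 (pseudocount 1 read, 4 residual degrees of freedom, Benjamini-Hochberg adjustment); the fit assumes that day and treatments add up. Other steps used Python 3.11.15, numpy 2.4.6, scipy 1.17.1 and statsmodels 0.14.6. Scripts were tested on simulated data.

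RefSeq promoters (GRCm38.p6) were placed on mm9 by matching the spacing of their CpGs to listed CpGs, with no coordinates converted; at least 7 CpGs had to match with a margin of 3 over the next best place, or 4 at the RefSeq distance from a placed promoter. In HoxD the distances between 8 of 8 placed starts equalled those of RefSeq, and in HoxA 3 of 4. Hoxd4 and Hoxd13, with 4 matched CpGs each, were placed by that distance. Their agreement was therefore set by the rule and says nothing about the placement. These minimum numbers were chosen after seeing the data. The members, gene lists and tests were chosen with earlier results of these data known. Named were the tile with the largest difference in each direction per cluster, the 10 stretches with most CpGs, the 10 CpGs with the largest called differences, and each placed promoter. Stretches allowed gaps of up to 500 bp.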

Additional observations from a re-analysis of the deposited data

Results flagged for a closer look

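The change from day 2 to day 5 differed in direction with vitamin C in each cluster. Over the 4 clusters it was 1.30 points in untreated and 3.31 points in L-proline cells, and -0.906 points with vitamin C and -1.09 points with both, so that the mean change without vitamin C exceeded that with it by 3.30 points. The same quantity was 2.69 points in HoxA, 3.91 in HoxB, 3.33 in HoxC and 3.40 in HoxD. The result was flagged by a rule: both changes without vitamin C above 0 and both with it below 0. That rule fixes an exact permutation of the 4 changes over 6 groupings at p = 0.333, the smallest value possible. The permutation therefore says nothing further about the difference. CpGs elsewhere changed in the same directions, by 2.19, 2.70, -0.707 and -0.430 points.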

How the results depend on the processing

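The direction of the vitamin C difference held in the 4 clusters under every alternative run, and the tile count and the order of the clusters did not hold. With 30 reads the mean of HoxB was 3.30%, and the vitamin C difference was -2.80 points in HoxA, -3.27 in HoxB and -3.22 in HoxC. HoxA minus HoxC was 0.119 points with 20 reads and -0.168 with 30. HoxC minus HoxD was 0.0975 points with 20 reads, -0.306 with 30 and 0.454 with the bounds drawn in by 10 kb. HoxA minus HoxD was -0.475 points with 30 reads, -0.0157 with all listed CpGs and -0.450 with the drawn-in bounds, and HoxB minus HoxD was -0.0101 with 30 reads. Hox tiles called lower with vitamin C numbered 34 of 140 with 5 CpGs per tile (24.3%, against 14.9% of all tiles), 26 of 128 with 20 reads (20.3% against 11.7%), 6 after centring (3.49% against 0.409%), 113 with no minimum difference (65.7% against 34.3%) and 3 by the quasi-binomial model (1.74% against 1.18%). The first 2 settings test fewer tiles. Leaving out 1 library gave 32 to 58 called tiles, with 32 (18.6% against 5.30% of all tiles) without the library of both compounds on day 5. Without 1 library the vitamin C difference over the clusters ran from -5.91 to -4.18 points, that of L-proline from 0.894 to 1.89 and that of day from -0.234 to 1.23. With 20 reads, Fisher's test covered fewer CpGs, 1494 in the clusters of 348979 in all. L-proline then called 0 cluster CpGs higher on day 2, where 0.115% of all CpGs were. Vitamin C called 59 lower on day 5 (3.95%, where 2.69% of all CpGs were). Both against L-proline called 138 lower on day 5 (9.24%, where 5.07% were). Untreated cells had 1 higher on day 5 than on day 2 (where 0.150% were). With a minimum difference of 10 points, both against L-proline on day 5 had 1 higher (where 0.0136% were). Without the 2 dense tiles with the largest differences, an alternative chosen after seeing the data, the gap of dense CpGs was -0.753 points. Elsewhere the cause of a change was not tested. No paired analysis was possible because each combination of treatment and day is 1 library, so there is no replicate number to use as a block; the 4 matched pairs are pairs of conditions. Coverage limits single CpGs, where 10 reads resolve steps of 10 points.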
